A study of Zea mays with 18 samples.

Results

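The difference between the NO3- response of *zmnlp3.1* roots and that of wild-type (WT) maize roots was measured for every expressed gene, as the change from KCl to KNO3 in *zmnlp3.1* minus the same change in WT. It rests on 12 of the 18 libraries of the study, 3 for each genotype and treatment, chosen by their labels and not by any measured value. The groups were WT under KCl, WT under KNO3, *zmnlp3.1* under KCl and *zmnlp3.1* under KNO3, all in the inbred background ND101. The *zmnlp3.1* plants carry a CRISPR/Cas9 edit of ZmNLP3.1, which the sample labels call a knockdown, and which edited line was sequenced is not given in the sources used here. Nothing in the labels says whether the replicates were separate cultures, so p-values measure the spread between these samples, which may be technical. Seedlings of all groups were grown for 10 days in full nutrient solution and starved of N for 4 days, and were then given 5 mM KNO3 or, as the control for the cation, 5 mM KCl for 2 h. Every group was therefore N-starved before treatment, and the KCl groups describe starved roots.

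NIN-like proteins (NLPs) are plant transcription factors that bind nitrate-responsive elements in the promoters of genes for NO3- uptake and reduction. In Arabidopsis, NLP7 is retained in the nucleus when NO3- is present and starts the primary NO3- response, a wave of transcription that needs no new protein synthesis. The first genes of that wave include nitrate reductase, NIGT1-type repressors, BT scaffold proteins and genes of the pentose phosphate pathway, and it reaches hormone metabolism and many genes repressed by NO3-. An allele that removes such a factor can lower a response that WT shows. Subtraction over all genes also records responses that WT does not show.

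The edit was made with a pair of guides against the second exon of ZmNLP3.1. They are shown because they define the mutant. Each is the stretch that both construct primers of a guide share, read 5′ to 3′, the second one as the reverse complement of its primers, and neither was placed on the genome here.
First guide stretch: gcaatacacgactgagcaga
Second guide stretch: tctgcaaagcacttgaggt

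The deposited values were FPKM, fragments on a gene scaled to its length and to the size of the library, and they were whole multiples of 1 read in each library, which gave back 17186874 to 19116969 reads per library over the 12 libraries. Values were analysed as log2(FPKM + 0.1), a scale that understates the change of weakly expressed genes. Libraries of a group differed from each other by 6.91 to 13.3 times counting noise in WT (mean chi-square per gene), and by 10.1 to 19.0 times in *zmnlp3.1* under KNO3, so none was a second copy of another. *zmnlp3.1* KCl replicate 4 stood apart from the other libraries of its group, by 36.5 and 25.4, where those 2 differed by 8.97. Counts are therefore given also without it. Genes of shoot photosynthesis, markers of green tissue, summed to 45.0 to 46.7 FPKM in WT under KCl, 64.4 to 77.8 in WT under KNO3, 29.3 to 44.8 in *zmnlp3.1* under KCl and 39.4 to 48.5 in *zmnlp3.1* under KNO3. Among the 80 such genes of the annotation, 23 were at 0 in all 12 libraries, and of 34 seed storage genes 24 were, with sums under 6 FPKM. The study names ZmNLP3.1 by an identifier of an older annotation, which the tables used here do not pair with their own. Among the 10 tested genes described as NLPs, 3 are described as Protein NLP3, and Zm00001d039266 and Zm00001d009017 were lower in *zmnlp3.1* than in WT under KNO3, with log2 differences of −0.89 and −0.76 (adjusted p = 0.000444 and 0.000738). An edit need not lower a transcript, so these levels do not test the genotype.

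Of 26011 genes tested, 1272 (4.89%) differed in their response between *zmnlp3.1* and WT at an adjusted p under 0.05, by limma with Benjamini-Hochberg adjustment over all genes tested. The response was below that of WT in 698 genes (2.68%) and above it in 574 (2.21%). At an unadjusted p under 0.05 it differed in 5560 genes (21.4%). For reference, 716 genes (2.75%) rose and 750 (2.88%) fell in WT with an adjusted p under 0.05 and an absolute log2 fold change over 1, and 453 (1.74%) rose and 595 (2.29%) fell in *zmnlp3.1*. Of the 1272 genes, 347 (27.3%) were WT responders by these thresholds, and 925 (72.7%) were not. Scaled to total recovered reads, the response was below that of WT in 611 genes and above it in 713. Which direction held more genes therefore depended on the scaling. In bulk roots, fewer cells of a type and less RNA per cell cannot be told apart. Without *zmnlp3.1* KCl replicate 4 the difference was called in 1523 genes, of which 1045 were among the 1272. The count fell to 835 without WT KCl replicate 1, 691 without WT KCl replicate 3, 686 without WT KNO3 replicate 1, 583 without WT KNO3 replicate 3 and 634 without *zmnlp3.1* KNO3 replicate 4. In each of the 12 fits that left out a library all 1272 genes kept the sign of their difference, and 475 were called in every one of them.

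The called genes fell into classes by what each genotype did. A WT rise was lost in 177 genes, which rose in WT and did not pass the thresholds in *zmnlp3.1*, and was reduced in 22 that rose in both. A WT fall was lost in 138 genes and reduced in 2. A rise was gained in *zmnlp3.1* in 60 genes and a fall in 98 genes that were no responders in WT. The response was reversed, with a call in opposite directions in the 2 genotypes, in 8 genes, and was enlarged in none. The largest class, 767 genes, met the thresholds for a response in neither genotype. Of these, 398 were below WT and 369 above, and the estimated changes of the genotypes had opposite signs in 355 and 339 of them. With responses counted at any fold change, 94 genes were reversed, 231 rises and 236 falls were gained, 364 inductions and 263 repressions were lost or reduced, and 75 genes were left over. The thresholds therefore set the size of each class, and the genes below are described by their values. Without *zmnlp3.1* KCl replicate 4 there were 271 lost or reduced inductions, 97 gained rises, 165 gained falls and 12 reversed genes. WT KCl replicates 1 and 3, WT KNO3 replicates 1 and 3, *zmnlp3.1* KCl replicates 1, 3 and 4 and *zmnlp3.1* KNO3 replicates 2 and 4 each moved the size of at least 1 class by over 1.5 times when left out, within 117 to 271 for lost or reduced inductions, 78 to 149 for repressions, 26 to 97 for gained rises, 43 to 165 for gained falls, 4 to 12 for reversed genes, 0 to 2 for enlarged ones and 305 to 840 for the rest. Class medians are descriptions, since the same values made the classes. Lost inductions had a median log2 change of 1.44 in WT and 0.20 in *zmnlp3.1*, and lost repressions −1.58 and −0.01. For reduced inductions the medians were 3.26 and 1.60.

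**Figure D1:**
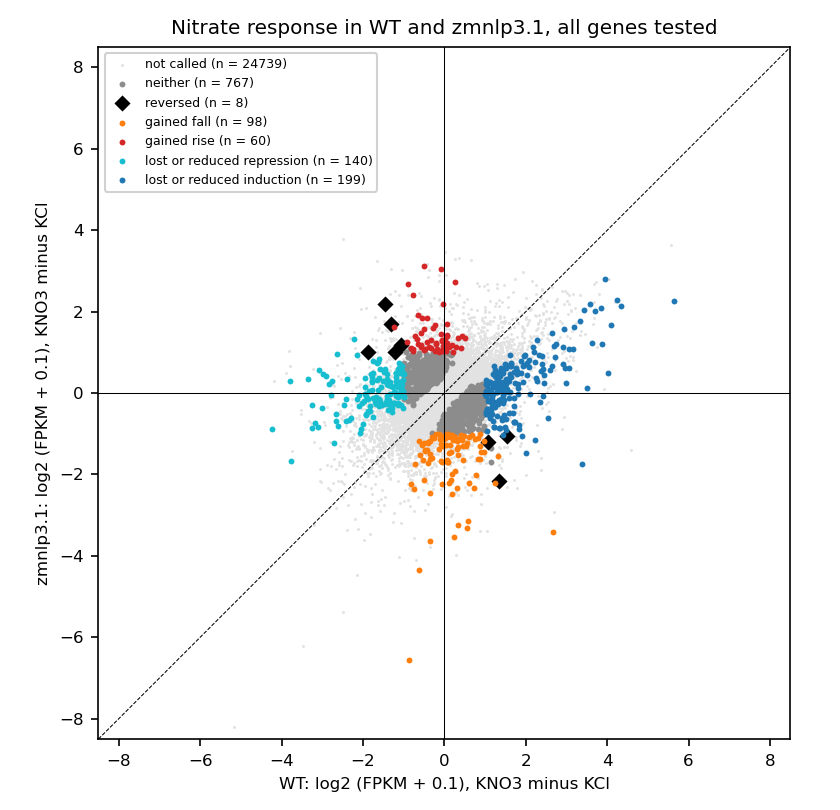
NO3- response (log2(FPKM + 0.1), KNO3 minus KCl) of all 26011 genes tested, WT on the x axis and *zmnlp3.1* on the y axis, with the 1272 genes of different response coloured by class and the dashed line marking equal responses. Lost inductions and repressions lie along the horizontal line, gained rises and falls along the vertical line, and the 8 reversed genes in the upper left and lower right.

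A difference in response can come from either treatment, and the classes differed in this. Under KNO3 alone, *zmnlp3.1* differed from WT in 136 of the 177 lost inductions, under both treatments in 34, and under KCl alone in 5. Lost repressions differed in level under KNO3 alone in 87 of 138 genes and under KCl alone in 30. Of the 60 gained rises, 24 differed under KNO3 alone and 24 under KCl alone, and in each of the 31 gained rises that differed under KCl the starved *zmnlp3.1* roots had the lower level. Of the 98 gained falls, 67 differed under KNO3 alone, and 28 had a higher level under KCl. All 5 genes whose fall in WT became a rise in *zmnlp3.1* were lower in starved *zmnlp3.1* roots. Over all genes tested, 671 (2.58%) were higher and 1771 (6.81%) lower in *zmnlp3.1* under KCl, and 3829 (14.7%) were higher and 4352 (16.7%) lower under KNO3, at an adjusted p under 0.05. The count under KCl, 2442 in all, was 1341 without *zmnlp3.1* KCl replicate 4, 1307 without WT KCl replicate 1 and 1449 without WT KCl replicate 3, and the count under KNO3, 8181 in all, was 5148 without *zmnlp3.1* KNO3 replicate 4. The shares of the classes have to be read against these, and against the subtraction that links both levels to the response.

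**Figure D2:**
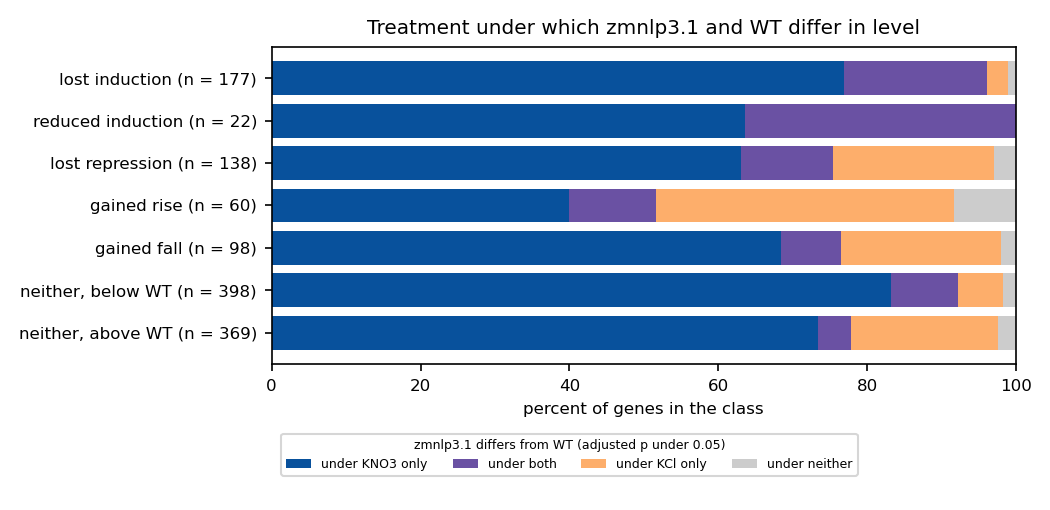
Percent of the genes of each class that differ in level between *zmnlp3.1* and WT (adjusted p under 0.05 in limma) under KNO3 only, under both treatments, under KCl only or under neither. KNO3 alone accounts for 136 of 177 lost inductions but for 24 of 60 gained rises, of which as many differ under KCl alone.

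The lost or reduced inductions with the smallest p-values were those of regulators and of an enzyme of cofactor synthesis. gene_Zm00001d043390, described as Protein DOG1-like 1 after an Arabidopsis protein of seed dormancy (chromosome 3, 198588278 to 198589171, minus strand, B73 RefGen_v4), had 32.4, 34.6 and 27.7 FPKM under KCl and 259, 309.8 and 279 under KNO3 in WT. In *zmnlp3.1* it had 29.2, 24.5 and 29.5 FPKM and 52.04, 63.4 and 60.6 FPKM. KNO3 libraries were above KCl libraries in both genotypes, and those of *zmnlp3.1* stayed far below those of WT. The log2 rise was 3.16 for WT against 1.08 for the mutant, a difference of −2.08 (standard error 0.18, adjusted p = 2.24e-05). Its neighbours on chromosome 3, gene_Zm00001d043389 (CBL-interacting protein kinase 19) and Zm00001d043391 (Tubby-like F-box protein 2), were named after their values were seen, and their rises of 1.39 and 2.40 in WT were 0.04 and 0.71 in *zmnlp3.1* (adjusted p of the difference = 0.00208 and 0.00108). Whether reads were counted by strand is not given in the sources used here.

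Zm00001d032024, Myb-related protein Zm38 (chromosome 1, 209721047 to 209722443), a MYB transcription factor, had 25.1, 27.1 and 30.01 FPKM under KCl and 79.3, 82.98 and 69.2 under KNO3 in WT, and 25.7, 24.96 and 21.5 and then 15.3, 14.3 and 10.9 in *zmnlp3.1*. All KNO3 libraries of WT were above, and all KNO3 libraries of *zmnlp3.1* below, every KCl library. The estimated changes were 1.49 and −0.84, the second under the fold threshold, and the difference was −2.33 (standard error 0.20, adjusted p = 2.24e-05). Zm00001d044844, Membrane-anchored ubiquitin-fold protein 3, a small protein with the fold of ubiquitin held at the plasma membrane, had 11.7, 9.88 and 11.2 FPKM and 50.8, 65 and 66.4 FPKM in WT against 11.4, 13.2 and 10.8 and 17, 13.3 and 12.2 in *zmnlp3.1*. The treatments did not overlap in WT, whereas in *zmnlp3.1* the highest KCl library was above the lowest KNO3 library. The difference was −2.20 (adjusted p = 4.85e-05). gene_Zm00001d019207, the transcription factor NAC domain-containing protein 67, rose from 47.98, 50.8 and 47.97 FPKM to 211, 289 and 269 FPKM in WT. It had 33.7, 28.7 and 33.2 FPKM and 42.4, 51.4 and 46.01 FPKM in *zmnlp3.1*, where the rise of 0.55 was under the fold threshold, and the responses differed by −1.83 (adjusted p = 0.000109). gene_Zm00001d015183, L-aspartate oxidase, which opens the plastid route from aspartate to NAD, rose by 2.59 in WT and by 0.56 in *zmnlp3.1* (adjusted p of the difference = 0.000565). Zm00001d017138, transcription factor bHLH128, rose by 1.17 in WT, and its change in *zmnlp3.1* was −0.33 (adjusted p of the difference = 0.000565). Of the genes without a protein description, Zm00001d044061 changed by 1.45 and −0.53 and Zm00001d043723 by 1.47 and −0.17 in WT and *zmnlp3.1*. Zm00001d008329, also without a description and chosen after its values were seen, was far more abundant, with 208, 142 and 185 FPKM under KCl and 3129, 3677 and 3912 under KNO3 in WT and 151, 153 and 125 and 461, 930.2 and 571 in *zmnlp3.1*, a difference of −2.20 (adjusted p = 0.00145).

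Genes of the NO3- assimilation pathway itself divided between those with a smaller response and those whose difference was not called with all 12 libraries. Nitrate reductase turns NO3- into nitrite, and 2 of the 4 tested genes had a smaller response and none a larger one. Of all genes, 2.68% were called below WT and 2.21% above. Zm00001d018206, Nitrate reductase [NAD(P)H], had 59.7, 48.3 and 73.5 FPKM under KCl and 747, 1016 and 839 under KNO3 in WT. In *zmnlp3.1* the levels were 35.3, 36.6 and 19.4 and 148, 129.8 and 103 FPKM. The treatments did not overlap in either genotype, and every *zmnlp3.1* library was below every WT library of its treatment. The gene still rose by 2.10 in *zmnlp3.1* against 3.85 in WT (difference −1.75, standard error 0.33, adjusted p = 0.00817). Zm00001d049995, Nitrate reductase [NADH] 1, rose by 1.57 against 2.94 (adjusted p of the difference = 0.0234). Its call was lost without WT KCl replicate 1, WT KNO3 replicate 3 or *zmnlp3.1* KNO3 replicate 4 (adjusted p = 0.0546, 0.0698 and 0.0664). None of the 4 nitrite reductase genes, whose products make ammonium of nitrite, was called, and their differences ranged from −0.75 to 0.03 (standard errors 0.49 and 0.19). Zm00001d018161, 1 of the 3 that rose in WT, had 237, 202 and 242 FPKM under KCl and 1478, 1655 and 1414 under KNO3 in WT. In *zmnlp3.1* it had 202, 164 and 59.5 and 683, 662 and 485 FPKM, and the lowest KCl library was replicate 4, the library that stood apart. High-affinity nitrate transporters of the NRT2 type and their activating proteins had no call among 6 genes either, and their differences ranged from −1.03 (standard error 0.79) to 1.39 (standard error 0.54). gene_Zm00001d054060, High-affinity nitrate transporter 2.1, had 234, 243 and 308 FPKM and 1001, 1190.4 and 818 FPKM in WT and 275, 219 and 36.1 and 336, 287 and 149 FPKM in *zmnlp3.1*, again with KCl replicate 4 as the lowest of its group. It may share reads with its neighbour gene_Zm00001d054057, of the same description. Zm00001d029932, described as NRT1/ PTR FAMILY 6.3 after the Arabidopsis dual-affinity transporter and NO3- sensor, rose by 1.55 in WT and had a difference of −1.05 (standard error 0.36, adjusted p = 0.104). Without *zmnlp3.1* KCl replicate 4 the difference was called, below WT, for nitrite reductases gene_Zm00001d052164 (−1.31, adjusted p = 0.0227) and Zm00001d018161 (−1.01, adjusted p = 0.0443), for gene_Zm00001d054060 (−1.95, adjusted p = 0.0277), for the activating protein Zm00001d017095 (−1.59, adjusted p = 0.00839), for transporter Zm00001d044504 (−1.20, adjusted p = 0.0479, and also without WT KNO3 replicate 4) and for Zm00001d029932 (−1.36, adjusted p = 0.0195, and also called with the replicate number as a block). Of the oxidative pentose phosphate pathway, which supplies NADPH, 2 of 16 genes had a smaller response, against 2.68% of all genes called below WT. gene_Zm00001d025015, Glucose-6-phosphate 1-dehydrogenase 2, had a difference of −1.53 (adjusted p = 0.0228), and Transaldolase one of −1.39 (adjusted p = 0.0357), and these were no longer called in 4 and 9 of the 12 fits that left out a library.

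Some regulators of the NO3- response, and single enzymes of sugar signalling and chlorophyll synthesis, had smaller or lost inductions. The counts per family below stand against 2.68% of all genes called below WT. gene_Zm00001d042443, BTB/POZ and TAZ domain-containing protein 2, a scaffold of the BT family and 1 of 3 such genes called, had 30.6, 25.5 and 24.1 FPKM under KCl and 439, 564 and 531 under KNO3 in WT and 13.1, 12.7 and 5.83 and 48.2, 54.8 and 44.1 FPKM in *zmnlp3.1*. Neither genotype had overlapping treatments, and the rise of 4.25 became one of 2.29 (difference −1.96, adjusted p = 0.00407). The NIGT1 and HHO factors repress NO3- and phosphate starvation genes, and 2 of 7 had a smaller response, gene_Zm00001d007962 (Transcription factor NIGTH1) with a difference of −1.16 and gene_Zm00001d034160 (Transcription factor HHO5) with −0.96 (adjusted p = 0.00791 and 0.04), the second no longer called in 9 of the 12 fits that left out a library. Zm00001d033347, LOB domain-containing protein 37, has an Arabidopsis counterpart that represses N-responsive genes. It was the only 1 of 23 LOB genes called (4.35%), near the share of all genes called in either direction (4.89%). Its rises were 3.59 in WT and 2.18 in *zmnlp3.1* (adjusted p of the difference = 0.0212, and 0.0582 without WT KNO3 replicate 3 and 0.053 without *zmnlp3.1* KNO3 replicate 4). gene_Zm00001d020272, Probable trehalose-phosphate phosphatase 7, which removes the phosphate of the sugar signal trehalose 6-phosphate, had 2.24, 2.44 and 2.86 FPKM and 20.2, 26.4 and 18.4 FPKM in WT and 1.16, 1.28 and 1.61 and 2.65, 2.25 and 1.59 FPKM in *zmnlp3.1*. Its response differed by −2.42 (adjusted p = 0.000565). Zm00001d001850, Magnesium-chelatase subunit ChlH of chlorophyll synthesis, chosen after its values were seen, rose from 1.704, 1.48 and 2.03 FPKM to 20.7, 25.2 and 21.5 FPKM in WT and from 1.14, 1.08 and 0.665 to 2.68, 2.68 and 1.72 in *zmnlp3.1* (difference −2.40, adjusted p = 0.000565).

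Genes of cytokinin signalling and of abscisic acid (ABA) were among the hormone genes called below WT. Two-component response regulators include those of the cytokinin relay. The list of two-component signalling held 26 tested genes, among them clock-related PRR and APRR genes that are not part of that relay. Of the 26, 4 were called below WT and 1, the clock-related PRR1 (Zm00001d051114), above, against 2.68% and 2.21% of all genes. The call of PRR1 was lost in 9 of the 12 fits that left out a library and with the replicate number as a block. Each of the 4 rose in WT, ORR2 (gene_Zm00001d050768) by 1.49, ORR10 (Zm00001d023242) by 1.35, ORR6 (gene_Zm00001d026594) by 1.48 and ORR4 (gene_Zm00001d011849) by 1.50. In *zmnlp3.1* their changes were 0.12, 0.15, 0.02 and 0.21. ORR2 had 81.9, 65.2 and 63.8 FPKM under KCl and 167, 207 and 219 under KNO3 in WT and 74.03, 68.96 and 71.9 and 65.9, 97.6 and 72.7 FPKM in *zmnlp3.1*, with overlapping treatments in the mutant only. ORR10 had a higher level in starved *zmnlp3.1* roots, 151, 162 and 206 FPKM against 109.9, 107 and 76.9 in WT, and its difference was −1.20 (adjusted p = 0.00745). The difference of ORR4 was no longer called in 5 of the 12 fits that left out a library. Of the CBL calcium sensors and the CIPK kinases that they activate, 3 of 50 genes were called below WT and none above, against 2.68% and 2.21% of all genes, and 5 were below WT without *zmnlp3.1* KCl replicate 4. gene_Zm00001d041422 (CBL-interacting protein kinase 4) changed by 1.08 in WT and −0.40 in *zmnlp3.1* (adjusted p of the difference = 0.000565). Cytokinin dehydrogenases break the hormone down, and gene_Zm00001d032664 (Cytokinin dehydrogenase 3) rose by 1.72 in WT, with a change of −0.72 in *zmnlp3.1* (adjusted p of the difference = 0.000565).

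The ABA receptors of the PYL family were taken as a list after their values were seen. Of 11 tested, 7 were called below WT and none above, with differences from −1.87 to −0.68, against 2.68% of all genes below WT. The median difference over the 11 was −0.96, and 0.01 over all genes. Each of the 7 had an increase in WT, of 0.55 to 1.13, and an estimate of −1.12 to 0.13 in *zmnlp3.1*, and all 7 were lower in *zmnlp3.1* under KNO3. A lower level under KNO3 was also found in 635 of all 698 genes called below WT, since the subtraction links that level to the response. Between 5 and 7 were called in the fits that left out a library, and 7 without *zmnlp3.1* KCl replicate 4. gene_Zm00001d047705 (Abscisic acid receptor PYL4, chromosome 9, 139633495 to 139634151) had 101, 89.9 and 107 FPKM under KCl and 172, 156 and 171 under KNO3 in WT. The levels in *zmnlp3.1* were 114, 116 and 68.8 and 44.9, 51.5 and 38.03 FPKM. Its libraries did not overlap between treatments in either genotype, with the KNO3 side higher in WT and lower in *zmnlp3.1*, where the change of −1.12 was called as a fall. Zm00001d034769, Abscisic acid 8'-hydroxylase 3, of the main route of ABA breakdown, had 5.32, 5.77 and 5.93 FPKM and 24.8, 39.3 and 37.96 FPKM in WT and 7.84, 5.27 and 3.87 and 3.81, 4.63 and 2.42 FPKM in *zmnlp3.1*. Its difference of −3.15 (standard error 0.39, adjusted p = 0.000565) was the only one called with all 12 libraries among 4 such genes, a list made after the values were seen, and 2 were called without *zmnlp3.1* KNO3 replicate 2 and with the replicate number as a block.

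**Figure D3:**
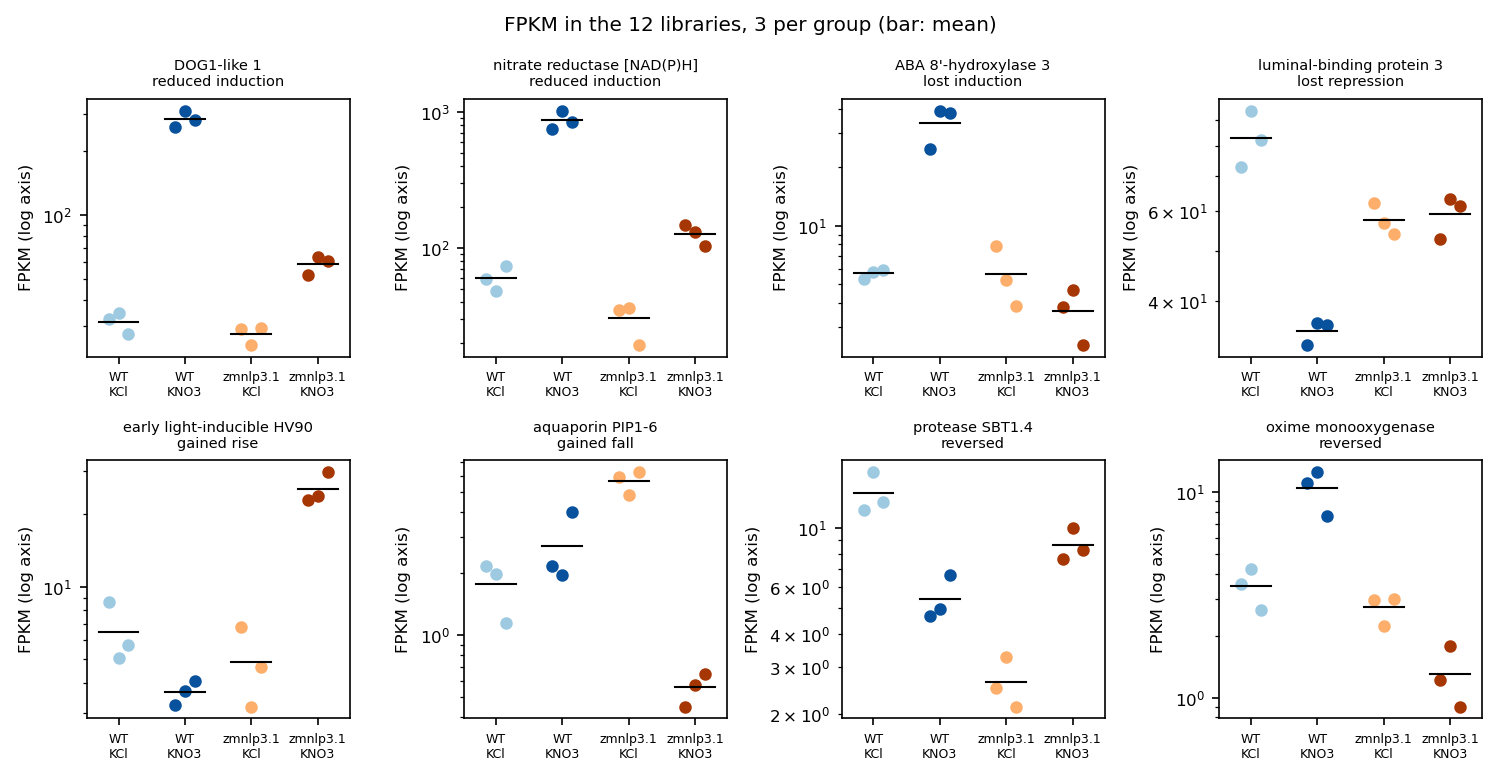
FPKM of 8 genes in each of the 12 libraries on log axes, 3 points per group with a bar at the mean. DOG1-like 1 and the nitrate reductase rise in both genotypes and less in *zmnlp3.1*, luminal-binding protein 3 falls only in WT, the early light-inducible protein rises and PIP1-6 falls only in *zmnlp3.1*, and the last pair moves in opposite directions.

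Lost repressions included enzymes of the cell wall and of secondary metabolism. gene_Zm00001d044744, Endoglucanase 16, which cuts beta-1,4-glucans, had 40.1, 38.1 and 36.3 FPKM under KCl and 13.7, 16 and 14.7 under KNO3 in WT and 33.5, 30.4 and 32.5 and 25.4, 31.6 and 28.3 FPKM in *zmnlp3.1*. WT treatments were apart and *zmnlp3.1* treatments overlapped (difference 1.18, standard error 0.14, adjusted p = 0.000565). Zm00001d007717, Bisdemethoxycurcumin synthase, a polyketide synthase by its description, was at 33.8, 33.3 and 28.3 FPKM under KCl in WT and at 1.14, 2.23 and 1.55 under KNO3. In *zmnlp3.1* it was at 7.47, 11.2 and 4.19 FPKM and 4.03, 4.26 and 3.21 FPKM, so the starved mutant was already below the starved WT. The change was −4.24 in WT and −0.87 in *zmnlp3.1* (difference 3.37, adjusted p = 0.000565). gene_Zm00001d038196 (Beta-hexosaminidase 3), Zm00001d003457 (PLAT domain-containing protein 1) and Zm00001d051529 (4-coumarate--CoA ligase 2, which activates coumarate for lignin and flavonoids) changed by −1.03, −1.18 and −1.25 in WT, all called as falls, and by 0.48, −0.07 and 0.14 in *zmnlp3.1*. gene_zma-MIR408b, the precursor of a microRNA tied to copper supply in plants and named after its values were seen, had 4.35, 8.28 and 6.75 FPKM and 0.386, 0.385 and 1.17 FPKM in WT and 6.98, 12.2 and 10.1 and 9.88, 5.04 and 9.401 FPKM in *zmnlp3.1* (difference 2.96, adjusted p = 0.00723).

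Some genes of protein folding in the endoplasmic reticulum (ER) shared this direction. The list was made after the values were seen. Of 82 tested, 18 were called above WT and none below, against 2.21% of all genes above WT. Under KNO3, 17 of the 18 were higher in *zmnlp3.1*, as were 420 of all 574 genes called above WT, since the subtraction links that level to the response. Over the 82 the median difference was 0.22, and 0.01 over all genes, with estimates above 0 in 55 of the 82 and below 0 in 27. The 27 included Endoplasmin homolog Zm00001d030106 (−0.63) and Calreticulin-3 Zm00001d010718 (−1.31), neither of them called. Between 13 and 18 were called in the fits that left out a library, and 17 without *zmnlp3.1* KCl replicate 4. The estimate in WT was a decrease in 17 of the 18 (range −1.24 to 0.06), while in *zmnlp3.1* the estimates lay between −0.11 and 0.75. Luminal-binding protein 3 (gene_Zm00001d054043, chromosome 4, 245469383 to 245473221), the Hsp70 chaperone of the ER, had 72.99, 93.9 and 82.3 FPKM under KCl and 32.8, 36.3 and 35.99 under KNO3 in WT. In *zmnlp3.1* it had 62.04, 56.7 and 54.02 and 52.7, 63.3 and 61.3 FPKM, with overlapping treatments at a level between those of WT. The response differed by 1.27 (adjusted p = 0.000565). Zm00001d005460 (Calreticulin, a chaperone of glycoproteins) had 57.9, 71.8 and 61.3 FPKM and 27.2, 24.96 and 32 FPKM in WT and 44.7, 51.3 and 43.6 and 43.9, 63.8 and 67.1 FPKM in *zmnlp3.1* (difference 1.48, adjusted p = 0.00208). The treatments were apart in WT and overlapped in *zmnlp3.1*. Zm00001d036401 (Endoplasmin homolog, the Hsp90 of the ER) changed by −1.01 in WT, a fall, and by 0.04 in *zmnlp3.1*, and Zm00001d047726 (DnaJ protein ERDJ3A, a partner of the Hsp70) by −1.11 and −0.06 (adjusted p of the difference = 0.00407 and 0.00622). The others were a second calreticulin, a second endoplasmin, calnexin homologs, protein disulfide isomerases, a further luminal-binding protein, ERDJ3B, a signal peptidase subunit and the receptor that returns ER proteins, and 14 of the 18 met the thresholds for a response in neither genotype.

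Class III peroxidases and NADPH oxidases, enzymes of the wall and of reactive oxygen, had 10 of 113 genes called above WT and 1 below, where all genes had 2.21% above and 2.68% below. gene_Zm00001d022290 (Peroxidase 2) and gene_Zm00001d022456 (Peroxidase 42) changed by −1.79 and −1.62 in WT, both falls, and their estimates in *zmnlp3.1* were 0.40 and −0.14. The member below WT, Zm00001d007426 (Respiratory burst oxidase homolog protein B), had 0.537, 0.4501 and 0.592 FPKM under KCl and 4.92, 5.28 and 4.22 under KNO3 in WT against 0.369, 0.194 and 0.0485 and 0.402, 0.241 and 0.324 in *zmnlp3.1*, and was no longer called in 9 of the 12 fits that left out a library. Between 4 and 12 members were called above WT in those fits, with 6 without WT KCl replicate 1 or 3, 5 without WT KNO3 replicate 3 or *zmnlp3.1* KNO3 replicate 3, 4 without *zmnlp3.1* KCl replicate 3 and 12 without *zmnlp3.1* KCl replicate 4. Of the ethylene and jasmonate list, 5 of 67 genes were above WT and 1 below, against 2.21% and 2.68% of all genes. Leaving out a library gave 3 above without WT KCl replicate 2 or *zmnlp3.1* KCl replicate 3, 8 without *zmnlp3.1* KCl replicate 1 and 12 without *zmnlp3.1* KNO3 replicate 2, and 0 to 1 below. Those above WT included gene_Zm00001d042541 and gene_Zm00001d042540, both Linoleate 9S-lipoxygenase 2 on chromosome 3, which may share reads. They differed by 2.46 and 2.07 (adjusted p = 0.00702 and 0.00748), with lower levels in starved *zmnlp3.1* roots.

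**Figure D4:**
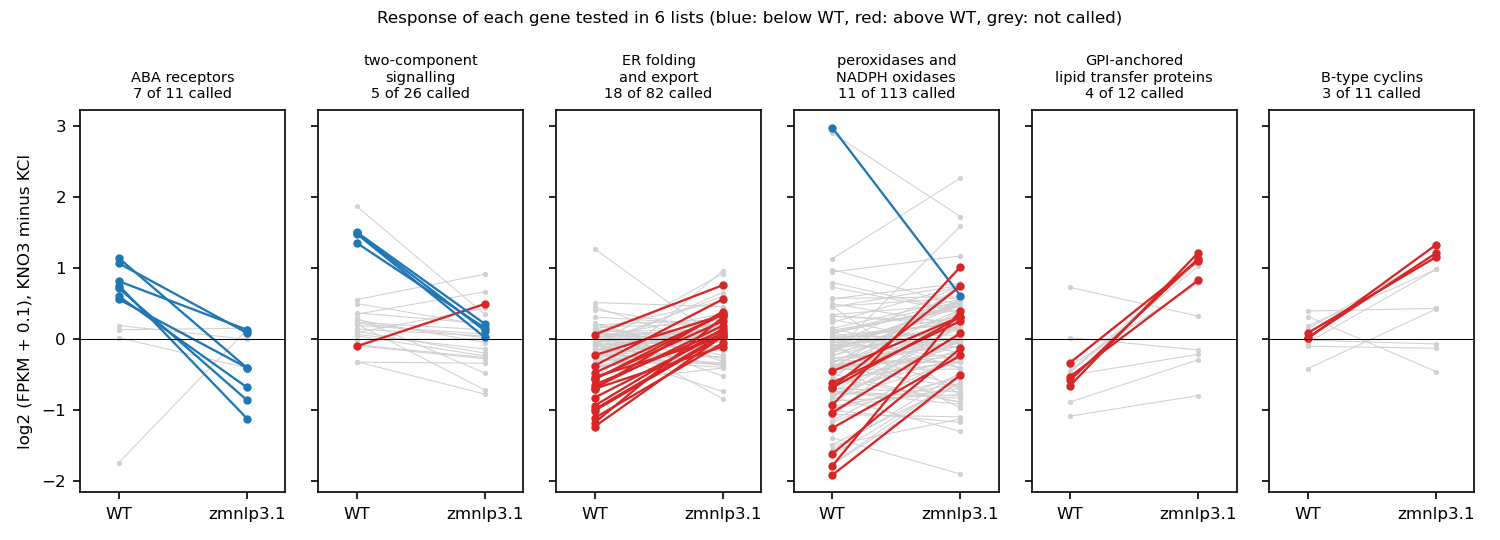
Response (log2(FPKM + 0.1), KNO3 minus KCl) in WT and *zmnlp3.1* of every tested gene of 6 lists, a line per gene, blue where the difference was called below WT, red above, grey where it was not called. The 7 called ABA receptors slope down across 0 or to it, and the 18 called ER genes slope up, 17 of them from a decrease in WT.

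Gained rises were led by Zm00001d007827, Low molecular mass early light-inducible protein HV90, a chlorophyll-binding protein of light stress. It had 8.64, 5.07 and 5.71 FPKM under KCl and 3.24, 3.71 and 4.05 under KNO3 in WT, where KNO3 was the lower side. In *zmnlp3.1* the levels were 6.81, 3.18 and 4.64 and 22.9, 23.7 and 29.8 FPKM, and all KNO3 libraries were above all others of the 12. The gain was 2.42, and the responses differed by 3.19 (standard error 0.32, adjusted p = 0.000109). gene_Zm00001d018926, Non-specific lipid transfer protein GPI-anchored 20, of a family that carries lipids to the cell surface, had 46.3, 47.1 and 47.9 FPKM and 28.7, 28.8 and 32.1 FPKM in WT and 20.4, 30.3 and 24.6 and 53.8, 64.9 and 54.4 FPKM in *zmnlp3.1*. KNO3 libraries were below KCl libraries in WT and above them in *zmnlp3.1*. Zm00001d013089, of the same family, had 41.97, 41.1 and 37.95 FPKM and 29.5, 27.6 and 23.8 FPKM in WT and 11.1, 16.5 and 11.3 and 24.8, 32.7 and 27.2 FPKM in *zmnlp3.1*, so that the genotypes overlapped under KNO3 and were apart under KCl. Of the 12 tested genes with this GPI-anchored description, a list made after the values were seen, 4 were called above WT and none below, against 2.21% of all genes above, and all 4 were lower in starved *zmnlp3.1* roots. Between 3 and 6 were called in the fits that left out a library, 6 without *zmnlp3.1* KCl replicate 3. gene_Zm00001d013947, NDR1/HIN1-like protein 6, rose by 1.03 in *zmnlp3.1* and had an estimate of −0.76 in WT (adjusted p of the difference = 0.00502). CAB1 (gene_Zm00001d021435), a light-harvesting protein, was called with a difference of 2.38 (adjusted p = 0.00745). It was the only 1 of the 17 tested shoot photosynthesis genes called above WT, and 1 was called below, with a difference of −1.63. Of all genes, 2.21% were called above and 2.68% below, and the median difference over the 17 was −0.02. The medians of the summed photosynthesis markers were higher under KNO3 than under KCl in both genotypes, and their part in the call of CAB1 was not tested. B-type cyclins, which drive entry into mitosis, had 3 of 11 genes called above WT and none below, against 2.21% of all genes above, another list made after the values were seen. They hardly changed in WT, with estimates of 0.01 to 0.08, and rose by 1.15 to 1.32 in *zmnlp3.1*, but none was called without WT KCl replicate 1 or 3, WT KNO3 replicate 3, *zmnlp3.1* KCl replicate 1 or *zmnlp3.1* KNO3 replicate 4, and 1 to 3 without the others.

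Gained falls were led by Zm00001d020383, Aquaporin PIP1-6, a water channel of the plasma membrane. WT had 2.17, 1.98 and 1.15 FPKM under KCl and 2.18, 1.98 and 4 under KNO3, with overlap. In *zmnlp3.1* it was at 5.93, 4.83 and 6.25 FPKM under KCl, above all WT libraries, and at 0.448, 0.573 and 0.644 under KNO3, below all of them. The change of −3.14 in *zmnlp3.1* gave a difference of −3.71 (standard error 0.40, adjusted p = 0.000286). PIP1-6 was the only 1 of 34 tested aquaporins called with all 12 libraries (2.94%), where 4.89% of all genes were called in either direction. gene_Zm00001d033931, Alcohol dehydrogenase 1 of ethanol fermentation, was abundant, with 429, 329 and 455 FPKM and 618, 627 and 579 FPKM in WT. In *zmnlp3.1* it had 694, 514 and 592 and 249, 369.6 and 241 FPKM, the treatments being apart in opposite directions (difference −1.69, adjusted p = 0.00496). gene_Zm00001d045042, Sucrose synthase 1, which splits sucrose, had a fall in *zmnlp3.1*, a change of −1.09, from a higher starved level, 617, 388 and 528 FPKM against 285, 251 and 306 in WT. Zm00001d027557, Glutathione S-transferase U17 of detoxification, changed by −1.22 in *zmnlp3.1*, a fall, and by 0.57 in WT. Transcription factor MYB36 (Zm00001d020569), whose Arabidopsis counterpart directs formation of the Casparian strip, was chosen after its values were seen. It had 10.1, 8.51 and 10.7 FPKM and 8.37, 9.88 and 10.03 FPKM in WT and 10.8, 9.01 and 5.53 and 2.605, 2.84 and 1.95 FPKM in *zmnlp3.1*. Its KNO3 libraries in *zmnlp3.1* were below the other 9 (difference −1.65, adjusted p = 0.00806).

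The 8 reversed responses were each called in both genotypes, and all 8 kept the call of the difference when any library was left out. A reversal also needs a call in each genotype, and it was less stable. The class held 4 to 12 genes when a library was left out, the fewest without WT KCl replicate 1, and 3 with a pseudocount of 1 FPKM. A WT fall became a rise in 5 genes. Zm00001d018281, Subtilisin-like protease SBT1.4, had 11.8, 16.3 and 12.5 FPKM under KCl and 4.66, 4.95 and 6.68 under KNO3 in WT. In *zmnlp3.1* it had 2.49, 3.28 and 2.12 and 7.64, 10.01 and 8.25 FPKM, so the treatments were apart in both genotypes and in opposite order (difference 3.00, standard error 0.39, adjusted p = 0.000731). gene_Zm00001d000203 (Patatin-like protein 3, a lipid acyl hydrolase) changed by −1.87 in WT and 1.01 in *zmnlp3.1*, and Zm00001d052206 (Protein PHOSPHATE-INDUCED 1) by −1.22 and 1.01. In *zmnlp3.1* the latter gene had 3.801, 5.42 and 13.8 FPKM under KCl and 10.2, 15.7 and 14.99 under KNO3, where KCl replicate 4 lay within the range of the KNO3 libraries. The other genes that turned from a fall to a rise, Zm00001d033989 and Zm00001d041794, have no description. A WT rise became a fall in 3 genes. Zm00001d019414, 4-hydroxyphenylacetaldehyde oxime monooxygenase, a cytochrome P450 by its description, had 3.56, 4.22 and 2.66 FPKM and 11.1, 12.5 and 7.65 FPKM in WT and 2.98, 2.24 and 3.02 and 1.21, 1.77 and 0.903 FPKM in *zmnlp3.1*, with no overlap in either. Its difference was −2.61 (adjusted p = 0.00145). Zm00001d022430 (Probable calcium-binding protein CML32) changed by 1.06 and −1.20 from low levels, and Zm00001d032447, without a description, by 1.34 and −2.16.

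Among the described genes that met the thresholds for a response in neither genotype, those with the smallest p-values were a transcription factor, a boron transporter, a cytokinin dehydrogenase and an ACT domain protein. Zm00001d020804, Homeobox-leucine zipper protein HOX4, had 50.8, 47.6 and 44.9 FPKM and 58.9, 52.2 and 62.9 FPKM in WT and 51.9, 46.3 and 43.6 and 22.3, 25 and 23.97 FPKM in *zmnlp3.1*, where the KNO3 libraries were the lowest of all 12 (difference −1.26, standard error 0.14, adjusted p = 0.000456). gene_Zm00001d030656, Probable boron transporter 2, had estimates of 0.85 in WT and −0.66 in *zmnlp3.1*. The other tested boron transporter, Zm00001d041590, lost a rise of 1.15, and the 2 were taken as a list after their values were seen. Both were called below WT, against 2.68% of all genes, and both were higher in starved *zmnlp3.1* roots and lower under KNO3. Of all 698 genes called below WT, 73 were higher under KCl and 635 lower under KNO3. gene_Zm00001d032046 (Cytokinin dehydrogenase 11) and Zm00001d033167 (ACT domain-containing protein ACR4) had estimates of 0.66 and 0.40 in WT and −0.84 and −0.73 in *zmnlp3.1*.

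In the 6 families of transcription factors listed, 6.19% to 12.5% of the tested genes were called, against 4.89% of all genes. AP2/ERF factors had 11 of 128 genes below WT and 3 above, bHLH factors 9 and 3 of 96, NAC factors 5 and 2 of 85, bZIP factors 5 and 2 of 65, MYB factors 6 and 6 of 100, and WRKY factors 4 and 2 of 97. In the fits that left out a library, 4 to 10 AP2/ERF genes were below WT, the fewest without WT KNO3 replicate 3, and 2 to 7 above, the most without *zmnlp3.1* KNO3 replicate 2. For bHLH the ranges were 5 to 9, the fewest without WT KCl replicate 3, and 0 to 3, with none without WT KCl replicate 2. They were 4 to 7 and 1 to 2 for NAC, 2 to 7 and 1 to 2 for bZIP, 3 to 6 in either direction for MYB, and 3 to 6 and 1 to 3 for WRKY. Among the bHLH genes, 5 rose in WT and were below WT in *zmnlp3.1*, 2 of them described as bHLH128 and 3 as bHLH130. Zm00001d042482 (bHLH128) had 38.8, 39.6 and 46.2 FPKM and 143, 142 and 126 FPKM in WT and 17.2, 16.4 and 13.8 and 31.05, 21.95 and 16.7 FPKM in *zmnlp3.1*, below WT under both treatments. None of the 10 NLP genes was called, with differences of −0.58 to 0.38, although without *zmnlp3.1* KNO3 replicate 2 Zm00001d039266 was (−0.77, adjusted p = 0.0229). In the lists of ammonium transporters, anion channels, ferredoxins and their reductases, and glutamine and glutamate synthases no gene was called with all 12 libraries. Without *zmnlp3.1* KCl replicate 4, 1, 1, 3 and 4 genes of these lists were called below WT, and leaving out any other library gave at most 1 call per list. Of 274 cytosolic ribosomal protein genes 3 were called above WT and none below (1.09%). Their median difference was 0.29, and their estimates were above 0 in 243 genes. Their summed FPKM under KNO3 in *zmnlp3.1* ranged from 27280 to 38270, across the range of WT under KNO3, 23050 to 33500, and leaving out a library moved the number called above WT between 0 and 16, the most without WT KNO3 replicate 4. With the replicate number as a block 23 were called above WT, and the median was 0.45.

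The difference between the response of *zmnrt1.1b*, edited in a gene of a NO3- transporter, and that of WT uses the same 6 WT libraries, so only values of both are given, and the difference between the mutants was not tested here. For gene_Zm00001d043390 (DOG1-like 1) the differences from WT were −2.08 in *zmnlp3.1* and −1.13 in *zmnrt1.1b* (adjusted p = 0.00754 for the second), and for gene_Zm00001d019207 (NAC67) −1.83 and −1.40 (adjusted p = 0.00278). For Zm00001d034769 (Abscisic acid 8'-hydroxylase 3) they were −3.15 and −0.19 (adjusted p = 0.84), and for Zm00001d044844 (Membrane-anchored ubiquitin-fold protein 3) −2.20 and −0.41 (adjusted p = 0.299). Among ER genes, Zm00001d036401 (Endoplasmin homolog) had 1.05 and 1.19 (adjusted p = 0.0038). The gained rise of Zm00001d007827 (early light-inducible protein) had 3.19 in *zmnlp3.1* and the opposite sign, −1.49, in *zmnrt1.1b* (adjusted p = 0.032).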

How the data were processed

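mRNA of roots was sequenced as 150 bp paired-end reads in 18 libraries, 3 for each of 3 genotypes under 2 treatments. The authors aligned reads with HISAT2 2.0.5 to B73 RefGen_v4, and their processing notes also name fastp and StringTie 1.3.3b. The read counter, its handling of strand and the scaling between libraries are not given in the sources used here. The deposited values are FPKM for 47334 genes, with 27409 protein descriptions in the same table. Multiplied by gene length they gave whole reads for 100% of values within 0.01, 17186874 to 19116969 per library, and the library size by which the authors divided was 0.925 to 1.11 times that total. Median-ratio factors of the deposited values were equal in all 18 libraries, at 1.008.

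Genes with at least 1 FPKM in at least 3 libraries were kept, 26011 in all. Values were log2(FPKM + 0.1), and a model of 6 groups over all 18 libraries was fitted in limma 3.58.1 (R 4.3.3) with a variance trend and 12 residual degrees of freedom. The response difference, the response of each genotype and the genotype difference under each treatment were contrasts of that model, adjusted by Benjamini and Hochberg. Responses also needed an absolute log2 change over 1. The test was checked on simulated data. Tables were handled in Python 3.11.15 with pandas 2.3.3 and drawn with matplotlib 3.10.9.

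Named genes had a mean of at least 5 FPKM in 1 of the 4 groups and a protein description, and were the 6 of smallest p in lost or reduced inductions and in repressions, and the 4 in each other class. To these came 2 genes without a description per class, every NLP gene, called members of gene lists and the genes of NO3- uptake and reduction. Members, lists and tests were chosen with earlier results of these data known. Lists are described by counts and medians, without a test. Same-numbered libraries were not treated as pairs in the main fit. Their deviations correlated by 0.07 and 0.05 in WT and −0.07 and 0.27 in *zmnlp3.1*. Those of libraries with different numbers correlated by −0.13 to 0.08 in WT and −0.23 to 0.16 in *zmnlp3.1*. Such correlations, from 3 libraries per group, cannot settle whether the libraries were paired. Alternatives were a pseudocount of 1 FPKM, other minimum values, other scalings, the 12 libraries alone, no variance trend, voom on the recovered reads, a replicate block and leaving out each library. Promoter motifs were not searched, as no promoter sequence was used here.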

Additional observations from a re-analysis of the deposited data

Results flagged for a closer look

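WT and *zmnlp3.1* responded to NO3- in opposite directions, each past the thresholds, in 8 genes. The difference itself was tested by limma over all genes, and each was called in all 12 fits that left out a library. The reversal, which needs a call in each genotype, was found in 4 to 12 genes in those fits. From a fall in WT to a rise in *zmnlp3.1* it was 3.66 for Zm00001d041794, 3.00 for Zm00001d018281 (SBT1.4), 2.89 for gene_Zm00001d000203 (Patatin-like protein 3), 2.25 for Zm00001d033989 and 2.24 for Zm00001d052206 (PHOSPHATE-INDUCED 1). From a rise in WT to a fall it was −3.50 for Zm00001d032447, −2.61 for Zm00001d019414 (oxime monooxygenase) and −2.26 for Zm00001d022430 (CML32). In *zmnrt1.1b*, measured against the same WT libraries, Zm00001d032447 had a difference of −3.47, Zm00001d019414 of −2.29 and Zm00001d022430 of −2.45 (adjusted p = 0.00278, 0.0089 and 0.00585). Zm00001d032447 had 1.87, 3.31 and 2.03 FPKM under KCl and 5.09, 7.25 and 6.03 under KNO3 in WT and 7.78, 8.19 and 11.5 and 2.36, 1.68 and 1.85 FPKM in *zmnlp3.1*, so that the KCl libraries of *zmnlp3.1* were the highest of the 12 and its KNO3 libraries overlapped the KCl libraries of WT.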

How the results depend on the processing

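The difference in response was called in 1324 genes scaled to total recovered reads, 1116 with a minimum of 0.1 FPKM and 1026 with no minimum. It was called in 1047 without the variance trend, 1158 with the 12 libraries alone and 1391 with a pseudocount of 1 FPKM. Voom on recovered reads gave 1398 and a replicate block 1723, and all these counts were within 1.5 times of 1272. Total-read scaling changed which direction held more genes, with 611 below WT and 713 above. With it, 175 inductions and 185 repressions were lost or reduced, against 199 and 140 in the main fit. The replicate block gave 867 below WT and 856 above, and the other settings also gave more below than above. Median-ratio rescaling gave 1274, but its factors were 1.008 in all 18 libraries, so it could barely change a result. Of the 1272 genes, 965 were called with no minimum, 970 with the 12 libraries alone, 1003 without the variance trend and 1031 with the replicate block. All 1272 kept their sign in each setting, but they had been picked by the same values. Total-read scaling and counting responses at any fold change were chosen after seeing the data. Counts that moved by over 1.5 times were falls and rises of *zmnlp3.1* with a pseudocount of 1 FPKM (380 and 244), enlarged responses with the 12 libraries alone (1), with a pseudocount of 1 FPKM (1) and with the replicate block (2), gained rises with the replicate block (104), and reversed responses with no minimum (5), a pseudocount of 1 FPKM (3) and total-read scaling (5). At any fold change there were 9 enlarged, 236 gained falls, 231 gained rises, 364 lost or reduced inductions, 263 repressions, 94 reversed and 75 other genes. With the replicate block, genes above WT also moved from 3 to 23 among ribosomal proteins, 3 to 5 among B-type cyclins and 3 to 6 among AP2/ERF factors, and ABA 8'-hydroxylases below WT from 1 to 2. The cause of each change was not tested, except that no fold threshold was set at any fold change.

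Leaving out 1 library gave 583 to 1523 differences in response, 344 to 917 below WT and 239 to 626 above. It gave 573 to 795 falls and 581 to 759 rises in WT, and 373 to 869 falls and 349 to 501 rises in *zmnlp3.1*. Lost or reduced inductions ranged from 117 to 271, repressions from 78 to 149, gained falls from 43 to 165, gained rises from 26 to 97, reversed from 4 to 12, enlarged from 0 to 2 and the rest from 305 to 840. Genotype differences ranged from 1307 to 2565 under KCl and from 5148 to 8657 under KNO3. Of 215 named genes called, 119 were called in all 12 of these fits, and none changed sign. With 3 libraries per group, differences that were not called are not shown to be absent.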

Other observations

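Other groups of genes from the lists moved in both directions. Of 69 genes of trehalose, sucrose and starch metabolism, 7 were called below WT and 4 above, against 2.68% and 2.21% of all genes. In the fits that left out a library 4 to 8 were below WT, the fewest without WT KNO3 replicate 1 or *zmnlp3.1* KNO3 replicate 4, and 1 to 4 above, with 1 without WT KCl replicate 2 or WT KNO3 replicate 1 or 3. gene_Zm00001d026337, Soluble starch synthase 3a, which extends starch chains, had 3.55, 4.06 and 4.1 FPKM under KCl and 5.34, 5.31 and 4.94 under KNO3 in WT and 8.29, 7.19 and 7.77 and 3.53, 3.66 and 4.55 FPKM in *zmnlp3.1*, with a higher starved level in *zmnlp3.1* (difference −1.38, adjusted p = 0.00145 by limma). Zm00001d053017, Cytosolic invertase 1, which splits sucrose, went the other way, with estimates of −0.57 in WT and 0.66 in *zmnlp3.1* (adjusted p = 0.00947). gene_Zm00001d032187, the chloroplastic malate dehydrogenase, which moves reductant out of plastids, rose by 2.74 in WT and by 1.19 in *zmnlp3.1* (adjusted p of the difference = 0.00691). Of 21 tested genes of sulfate uptake and assimilation, 1 was called below WT and 1 above, against 2.68% and 2.21% of all genes. These were the sulfate transporters Zm00001d043614 (3.5), with a difference of −1.60, and Zm00001d002038 (3.3), with 0.96.

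Thaumatin-like proteins, which include proteins of pathogen defence, were taken as a list after their values were seen, and 4 of 28 were called below WT and 2 above, against 2.68% and 2.21% of all genes. Without WT KCl replicate 3, WT KNO3 replicate 1 or *zmnlp3.1* KNO3 replicate 3 or 4, 2 were below WT. Zm00001d043121 had 30.8, 44.5 and 20.4 FPKM and 6.34, 1.79 and 6.296 FPKM in WT and 33.4, 13.9 and 24.7 and 28.3, 25.5 and 25.7 FPKM in *zmnlp3.1*, a lost fall, and Zm00001d022637 lost a rise of 1.44 (adjusted p of the difference = 0.00757 and 0.0052). Zm00001d010168, bZIP transcription factor 12, had 9.74, 9.96 and 10.7 FPKM and 24.5, 31.4 and 32.1 FPKM in WT and 8.12, 6.33 and 6.29 and 2.35, 4.69 and 4.28 FPKM in *zmnlp3.1* (difference −2.42, adjusted p = 0.00128). gene_Zm00001d028999, NAC transcription factor NAM-B2, changed by 1.80 and −0.02, and Zm00001d006106, NAC domain-containing protein 41, by −1.65 and 0.32, from a lower starved level in *zmnlp3.1* (adjusted p of the difference = 0.00211 and 0.00995). Zm00001d021207, described as dehydration-responsive element-binding, rose by 4.09 in WT and 1.66 in *zmnlp3.1*, and may share reads with its neighbour gene_Zm00001d021208. By chromosome, the share of tested genes called ran from 3.75% on chromosome 10 to 5.4% on chromosome 1.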
